A study of Mus musculus with 8 samples.

Results

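The 44 genes described here encode proteins of the lysosome: cathepsins and other lysosomal proteases, glycosidases, sulfatases, lipid-degrading enzymes with their activator proteins, phosphatases and membrane proteins. The list also holds Gnptab, progranulin (Grn) and the transcription factors Tfeb and Tfe3. Members were taken by gene symbol, and of the probe sets annotated to a member alone, the brightest over all 8 arrays stood for it. Of the 44 listed genes, 41 had such a probe set among the 13307 genes on the array, and 40 were among the 9511 genes tested. Cln3, an endolysosomal membrane protein, lay below the floor on signal (6.06 on the log2 scale, the 40th percentile of probe set means). Cd63, Acp5 and Tfeb had no probe set annotated to them alone and were not analysed here.

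RNA came from primary mouse embryonic fibroblasts (MEFs), cells grown directly from embryos. The Cry DKO group held 4 independent lines from Cry1-/- Cry2-/- embryos, which lack both cryptochromes, the repressors of the circadian clock, and the WT group held 4 independent lines from wild-type embryos. Both genotypes were bred onto a near-C57BL/6J background by more than 7 backcrosses from mixed BL6/129 mice. Lines of both genotypes proliferated without synchronisation in serum-containing medium at 3% oxygen with no treatment named, and were each measured on 1 Affymetrix array. Primary cultures of this kind are not clones and can hold more than fibroblasts.

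Lysosomes are acidic compartments in which proteins, glycans and lipids are broken down. Most soluble hydrolases are glycosylated in the secretory pathway, tagged with mannose 6-phosphate and carried to the lysosome by receptors, while heavily glycosylated membrane proteins line the organelle. Many of these genes carry E-boxes of the CLEAR type in their promoters, which are bound by TFEB, TFE3 and related factors. The CLOCK and ARNTL pair, which cryptochromes repress, binds E-boxes with the same core. Macrophages are rich in lysosomes and express several cathepsins at high levels.

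Array medians lay between 6.78 and 6.79. That the base is 2 was inferred from how far the values reach, and every difference below is Cry DKO minus WT on that log2 scale. Precision is limited by the number of arrays, and the p-values rest on how independent lines vary. Cry1 averaged 6.29 ± 0.31 in Cry DKO and 6.79 ± 0.40 in WT lines, and Cry2 averaged 6.87 ± 0.20 in Cry DKO and 7.20 ± 0.18 in WT lines (SD, n = 4 each). Whether the probes fall inside the removed exons is unknown here, so these signals do not check the labels. Of 12 fibroblast markers, 9 were tested and the listed probe sets of Dcn, Lum and Pdgfra lay below the floor. The mean of the 9 lay between 11.9 and 12.1 in Cry DKO lines and between 12.1 and 12.4 in WT lines. Macrophage markers were present as well: the mean log2 signal of 22 of them was 9.57, 9.17, 8.63 and 8.92 in Cry DKO lines 1 to 4, against 8.57, 7.95, 8.22 and 8.50 in WT lines 1 to 4. Each Cry DKO line lay above each WT line in that mean. In such cultures, fewer cells of a type and less RNA per cell cannot be told apart.

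Most lysosomal genes, 33 of the 40 tested, were not called between the genotypes. In limma with Benjamini-Hochberg adjustment over the 9511 genes, 1 of the 40 tested members was higher in Cry DKO (Ctsc) and 6 were lower (Ctsk, Ctsa, Lamp1, Gaa, Ctsh and Arsa). Over all genes tested, 4.95% were called higher and 4.23% lower. The median difference was -0.07 over the 40 tested members, against -0.0059 over all genes, and 26 members had a negative difference, which is 65% of them against 51.5% of all genes. The 4 Cry DKO values lay wholly below the 4 WT values for 10 members, against 8.44% of all genes, and wholly above for 0 members, against 8.32%. Those 10 were Ctsk, Ctsa, Lamp1, Gaa, Arsa, Ctsl, Idua, Naglu, Glb1 and Asah1. At an unadjusted p under 0.05, 15 members passed, beside 2406 of all 9511 genes. The count of lower members was 2 without WT line 1, WT line 2 or Cry DKO line 3, 3 without WT line 3, WT line 4 or Cry DKO line 2, 4 without Cry DKO line 4 and 7 without Cry DKO line 1. Calls over all genes fell as well: 402 were lower with every line kept, and 187, 191, 161 and 254 without WT lines 1 to 4. Without Cry DKO lines 1 to 4 the all-gene counts were 329, 264, 232 and 276.

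**Figure D1:**
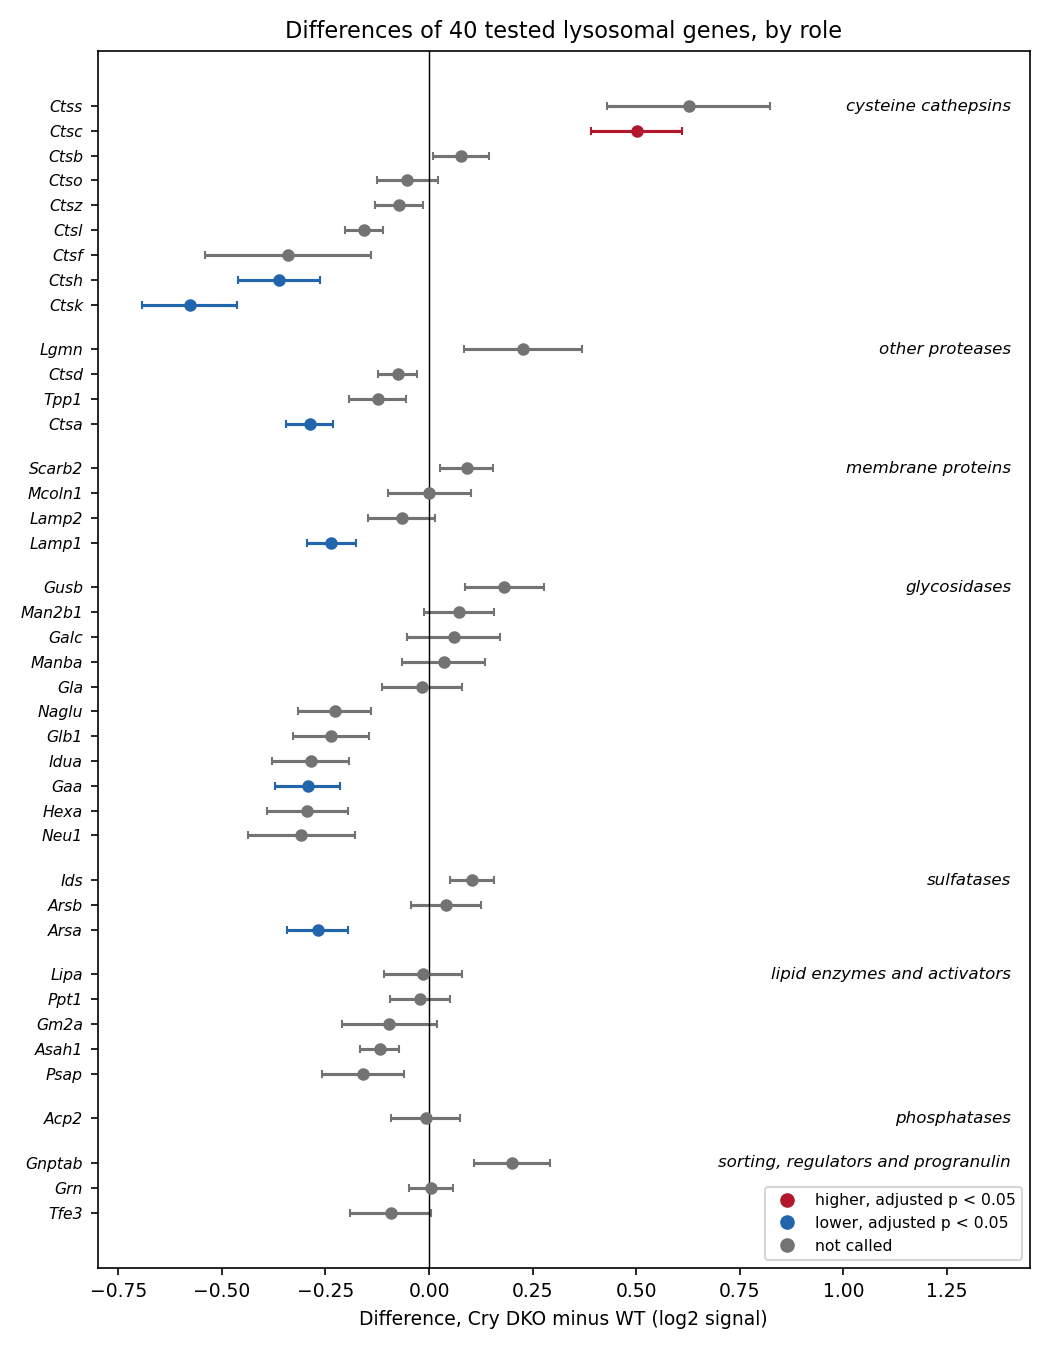
Difference between Cry DKO and WT lines on the log2 scale for the 40 tested members, grouped by role, with bars of 1 standard error from limma (4 lines per genotype). Called and uncalled genes overlap in the size of their differences, as with uncalled Ctss at 0.63 and Ctsf at -0.34, and the widest spread, from -0.58 to 0.63, is among the cysteine cathepsins.

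Cysteine cathepsins, the papain-like proteases of the lysosome, moved in both directions. Of 9 tested, Ctsc was called higher, and Ctsk and Ctsh were called lower. Ctsc encodes cathepsin C (dipeptidyl peptidase I), which removes dipeptides from protein ends and activates granule serine proteases of immune cells. Its signal was 12.06, 11.93, 11.48 and 11.84 in Cry DKO lines 1 to 4, against 11.50, 11.25, 11.23 and 11.33 in WT lines 1 to 4. The groups overlapped only at Cry DKO line 3, which lay just under WT line 1. The difference was 0.50 (SE 0.11, limma adjusted p = 0.0195), and a second probe set of the gene gave 0.71 (adjusted p = 0.0314 with each probe set tested). The call ended without WT line 2 (0.47, adjusted p = 0.0556), WT line 3 (0.47, adjusted p = 0.0609) or Cry DKO line 2 (0.47, adjusted p = 0.0503).

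Ctss encodes cathepsin S, which trims the invariant chain of MHC class II in antigen-presenting cells. It had 11.23, 10.83, 10.29 and 10.73 in Cry DKO lines 1 to 4, against 10.54, 9.68, 10.11 and 10.25 in WT lines 1 to 4. Cry DKO line 3 lay within the WT range and the other Cry DKO lines above it. The difference of 0.63 (SE 0.20) was larger in size than that of any other tested member, but it did not pass (limma adjusted p = 0.0720). Over 19 alternative fits it passed in 2. These were the fit without Cry DKO line 3 (0.79, adjusted p = 0.0332) and that with replicate number as a block (0.63, adjusted p = 0.0222).

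Ctsh encodes cathepsin H, an aminopeptidase that also matures surfactant proteins. Its values were 9.35, 9.14, 9.33 and 9.56 in Cry DKO lines 1 to 4, against 9.63, 9.86, 9.82 and 9.51 in WT lines 1 to 4. Only Cry DKO line 4 lay above the lowest WT line. The gene fell by 0.36 (SE 0.10, limma adjusted p = 0.0451), and its other probe set differed by -0.33 without passing (adjusted p = 0.195 with each probe set tested). The call of Ctsh ended without WT line 1, 2 or 3 or Cry DKO line 1, 2 or 3, where the difference lay between -0.39 and -0.29 and the adjusted p between 0.0741 and 0.122. It also ended with no filter on signal (adjusted p = 0.0501), with each probe set tested (0.0535), with the probe set of highest variance (0.199), without the intensity trend (0.0749) and without moderation (0.147). Over all 19 alternative fits Ctsh was called in 6.

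Ctsk encodes cathepsin K, the collagen-degrading protease of osteoclasts that fibroblasts also make. Signals of 8.84, 8.98, 8.59 and 8.40 were measured in Cry DKO lines 1 to 4, against 9.20, 9.40, 9.23 and 9.31 in WT lines 1 to 4. The groups did not overlap, and the Cry DKO lines were more spread (SD 0.26) than the WT lines (SD 0.09). Ctsk fell by 0.58 (SE 0.11, limma adjusted p = 0.0130), the lowest difference of the 40 tested members, and stayed called whichever line was left out (-0.67 to -0.48). Of 4 tested osteoclast markers, 0 were called in limma, with 2 negative and 2 positive. The gelatinase Mmp9 differed by -0.89 (adjusted p = 0.0828) and the integrin Itgb3 by -0.34 (adjusted p = 0.0973), both at an unadjusted p under 0.05. Tnfrsf11a differed by 0.23 (adjusted p = 0.50) and Nfatc1 by 0.05 (adjusted p = 0.877).

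Other cysteine cathepsins were not called. Ctsl, a broad endopeptidase, had 12.86, 12.79, 12.73 and 12.72 in Cry DKO lines 1 to 4, against 12.87, 12.99, 12.92 and 12.96 in WT lines 1 to 4. Its groups were just separate, by a small difference of -0.16 (SE 0.05, limma adjusted p = 0.0557). Ctsb, Ctsz and Ctso differed by 0.08, -0.07 and -0.05. Ctsf differed by -0.34 (SE 0.20, adjusted p = 0.322), with Cry DKO line 4 at 5.49 and the other 7 arrays between 6.14 and 6.55.

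Among the other proteases, Ctsa was called lower and 3 did not pass. Ctsa encodes cathepsin A (protective protein), a serine carboxypeptidase that stabilises β-galactosidase and neuraminidase 1 in 1 complex. It had 10.68, 10.64, 10.53 and 10.47 in Cry DKO lines 1 to 4, against 10.86, 10.88, 10.88 and 10.86 in WT lines 1 to 4. The WT lines were nearly identical, and each Cry DKO line lay below them. The gene fell by 0.29 (SE 0.06, limma adjusted p = 0.0128), the smallest p among the members, and stayed called without any 1 line (-0.32 to -0.25). The other members of its complex, Glb1 and Neu1, differed by -0.24 (adjusted p = 0.139) and -0.31 (adjusted p = 0.163) and were not called.

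Lgmn encodes legumain, an asparaginyl endopeptidase that processes cathepsins. It had 10.38, 10.14, 9.70 and 9.71 in Cry DKO lines 1 to 4, against 9.96, 9.62, 9.67 and 9.77 in WT lines 1 to 4. Cry DKO lines 1 and 2 lay above the WT range and lines 3 and 4 within it, so the difference of 0.23 did not pass (limma adjusted p = 0.353). The aspartic protease Ctsd differed by -0.08. Tpp1, a tripeptidyl peptidase, depended on the probe set: the one of highest mean differed by -0.12 (adjusted p = 0.293), while the dimmer one had 9.52, 9.48, 9.33 and 9.37 in Cry DKO lines 1 to 4, against 9.67, 9.66, 9.72 and 9.86 in WT lines 1 to 4. That dimmer probe set was lower by a call, at -0.30 (adjusted p = 0.0296 with each of 16333 probe sets tested, of which 3.14% were called lower).

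Lamp1, a major glycoprotein of the lysosomal membrane, was the called gene among 4 tested membrane proteins. It had 12.53, 12.32, 12.39 and 12.24 in Cry DKO lines 1 to 4, against 12.64, 12.63, 12.58 and 12.57 in WT lines 1 to 4. The groups did not overlap, though Cry DKO line 1 came within 0.05 of the lowest WT line. Lamp1 fell by 0.24 (SE 0.06, limma adjusted p = 0.0329). Of the fits that leave out a line, this call held only in that without Cry DKO line 1. Without any 1 of the other 7 lines the adjusted p lay between 0.0589 and 0.0847 and the difference between -0.25 and -0.19. Over all 19 alternative fits Lamp1 was called in 9.

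Lamp2, the related glycoprotein needed for chaperone-mediated autophagy through 1 of its splice forms, depended on the probe set. Its brightest probe set had 11.72, 11.48, 11.69 and 11.84 in Cry DKO lines 1 to 4, against 11.83, 11.57, 11.82 and 11.77 in WT lines 1 to 4. These groups overlapped, and the difference was -0.07. Another probe set of Lamp2 had 10.71, 10.68, 10.85 and 10.63 in Cry DKO lines 1 to 4, against 11.03, 10.96, 11.19 and 11.04 in WT lines 1 to 4. There the groups were apart and the difference was -0.34 (adjusted p = 0.0148 with each probe set tested), while the remaining probe sets gave -0.01 and -0.19 without a call. Which transcripts each probe set reads was not tested. Scarb2, the sorting receptor of glucocerebrosidase, differed by 0.09, and Mcoln1, the lysosomal calcium channel TRPML1, by 0.00. Cln3, below the floor, had 6.65, 6.02, 5.85 and 5.73 in Cry DKO lines 1 to 4, against 5.83, 5.96, 6.02 and 6.09 in WT lines 1 to 4.

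Glycosidases had the lowest median of any role with more than 3 tested members, -0.23 over 11 genes, of which 7 were negative. Gaa, the acid α-glucosidase that degrades glycogen, was the 1 called. Its signal was 9.24, 9.01, 9.06 and 9.21 in Cry DKO lines 1 to 4, against 9.45, 9.42, 9.27 and 9.56 in WT lines 1 to 4. The groups lay apart by a narrow gap at WT line 3. Gaa fell by 0.29 (SE 0.08, limma adjusted p = 0.0427), and a dimmer probe set differed by -0.41 (adjusted p = 0.0524). With each probe set tested the represented one also missed the threshold (adjusted p = 0.0516), and the call ended without WT line 1, 2 or 4 or Cry DKO line 2 or 3 (-0.29 to -0.25, adjusted p 0.0934 to 0.102).

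Idua and Naglu, which degrade heparan sulfate, and Glb1, the lysosomal β-galactosidase, had groups that did not overlap but were not called. Idua had 7.31, 7.40, 7.21 and 7.28 in Cry DKO lines 1 to 4, against 7.57, 7.59, 7.44 and 7.76 in WT lines 1 to 4 (difference -0.29, limma adjusted p = 0.0808). Naglu lay between 7.08 and 7.22 in Cry DKO lines and between 7.29 and 7.45 in WT lines (-0.23, adjusted p = 0.133). Glb1 lay between 8.97 and 9.13 in Cry DKO lines and between 9.14 and 9.50 in WT lines. Hexa, the α-subunit of β-hexosaminidase, had 11.49, 11.28, 11.06 and 10.97 in Cry DKO lines 1 to 4, against 11.50, 11.44, 11.44 and 11.59 in WT lines 1 to 4. Only Cry DKO line 1 reached the WT range, and the difference of -0.29 did not pass (adjusted p = 0.0852). Gusb, the β-glucuronidase, stood on the other side at 0.18 (adjusted p = 0.265), and Man2b1, Galc, Manba and Gla lay between -0.02 and 0.07.

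Among 3 sulfatases, Arsa, which removes the sulfate of sulfatide, was called lower. It had 8.93, 9.11, 8.99 and 8.82 in Cry DKO lines 1 to 4, against 9.18, 9.31, 9.16 and 9.27 in WT lines 1 to 4. The groups were apart, with Cry DKO line 2 nearest to WT. Arsa fell by 0.27 (SE 0.07, limma adjusted p = 0.0454), and of the fits that leave out a line, the call held only in that without Cry DKO line 2. Without any 1 of the other 7 lines the adjusted p lay between 0.0759 and 0.118 and the difference between -0.29 and -0.22. The call also ended with no filter on signal (adjusted p = 0.0551), with each probe set tested (0.0557), with the probe set of highest variance (0.0650), without the intensity trend (0.0646), without moderation (0.0992) and with array weights (0.0573). Over all 19 alternative fits Arsa was called in 5, beside 9 for Gaa, 9 for Lamp1, 17 for Ctsk and 18 for Ctsa. Ids and Arsb, which act on glycosaminoglycans, differed by 0.10 and 0.04 and were not called.

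**Figure D2:**
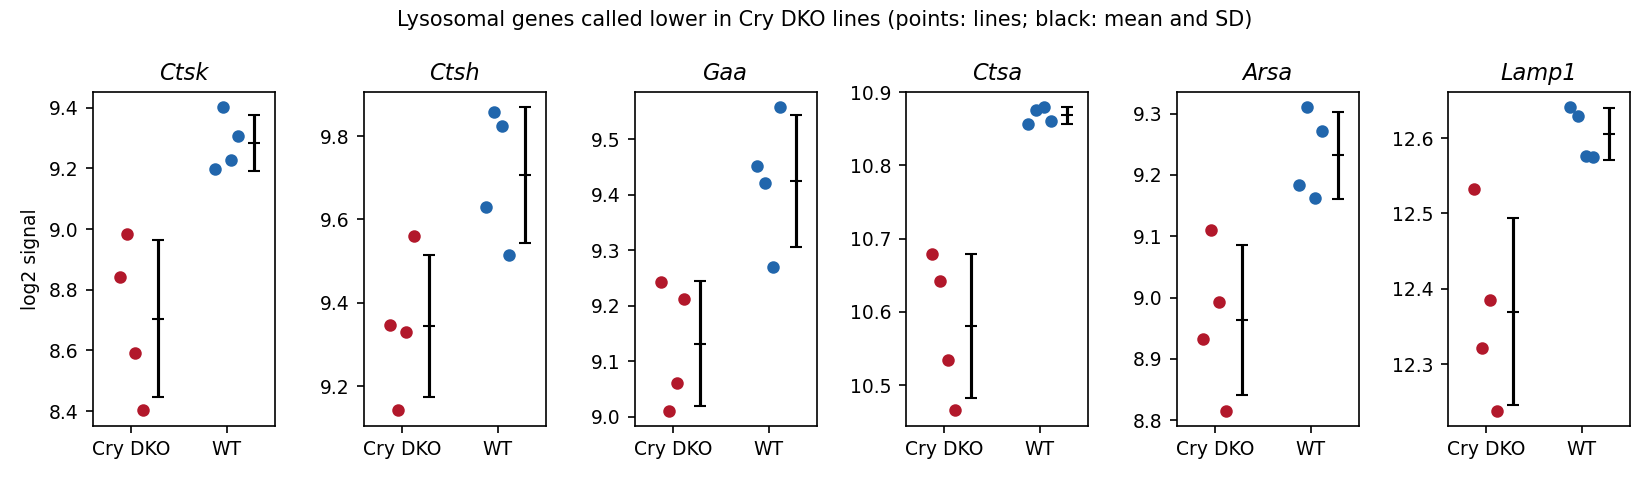
Log2 signal of the 6 members called lower in each of the 4 Cry DKO lines and 4 WT lines, each panel on its own scale, with black marks for the group mean and SD. The groups do not overlap for Ctsk, Ctsa, Lamp1, Gaa and Arsa, and Ctsh overlaps at Cry DKO line 4.

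Beside these genes, all 9 tested fibroblast markers had a negative difference, with a median of -0.17, and 1 was called. That was Fap, a surface protease of activated fibroblasts, which fell by 0.69 (limma adjusted p = 0.0262) and lost its call without WT line 2 or 4 or Cry DKO line 3 or 4 (-0.79 to -0.59 over the 8 fits that leave out a line). Their part in the lower lysosomal genes was not tested.

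The lipid enzymes and their activators were all negative by small amounts, with 0 of 5 called in limma and 1 at an unadjusted p under 0.05. Acid ceramidase, Asah1, lay between 11.63 and 11.73 in Cry DKO lines and between 11.76 and 11.88 in WT lines, a separation of -0.12 that did not pass (limma adjusted p = 0.140). Prosaposin, Psap, the precursor of the saposins, had 12.19, 11.90, 11.80 and 11.60 in Cry DKO lines 1 to 4, against 12.02, 12.04, 11.98 and 12.10 in WT lines 1 to 4. Its Cry DKO values ran from above the WT range to well below it. Gm2a differed by -0.10 in its brightest probe set, but another probe set gave 0.54 (adjusted p = 0.0535 with each probe set tested). The acid lipase Lipa and the thioesterase Ppt1 each differed by -0.02, and the acid phosphatase Acp2 by -0.01.

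Genes that control or feed the lysosome were not called. Tfe3, a partner of TFEB in transcription of lysosomal genes, had 8.96, 9.01, 8.89 and 8.62 in Cry DKO lines 1 to 4, against 9.04, 9.12, 8.82 and 8.86 in WT lines 1 to 4. The groups overlapped (-0.09, SE 0.10, limma adjusted p = 0.60). Gnptab, the phosphotransferase subunit that starts the mannose 6-phosphate tag, differed by 0.20 (adjusted p = 0.201). Grn, a secreted and lysosomal glycoprotein, differed by 0.00 in its brightest probe set and by -0.25 in a dimmer one (adjusted p = 0.129 with each probe set tested).

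The cathepsins that macrophages express strongly, Ctss, Ctsc and Ctsh, were set against the other 37 tested members. The 3 cathepsins had differences of 0.63, 0.50 and -0.36, with a median of 0.50. Among the other 37 the median was -0.07 and the range -0.58 to 0.23, with 0 called higher and 5 called lower in limma, and 12 at an unadjusted p under 0.05. Ctsh differed in the direction opposite to Ctss and Ctsc, with a call that held in 6 of 19 alternative fits, and Ctsc was called in 14 of 19. All 22 tested macrophage markers had a positive difference, 14 were called higher and 0 lower, and their median was 0.81 (0.09 to 0.97). Of those with the smallest p, Cd14, the lipopolysaccharide co-receptor, rose by 0.92 (adjusted p = 0.00302). Lyz2, lysozyme, rose by 0.83 (adjusted p = 0.00423), the membrane protein Ms4a7 by 0.82 (adjusted p = 0.00638) and the leukocyte tetraspanin Cd53 by 0.92 (adjusted p = 0.0126).

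The lines with most macrophage marker signal were those with most Ctss. Within Cry DKO, Ctss ran in the order line 1, 2, 4, 3 and so did the marker mean. In WT the shared order was line 1, 4, 3, 2. Ctsc had the marker order within Cry DKO, while Ctsh was highest in Cry DKO line 4 and WT line 2. To describe this within genotypes, limma was fitted with genotype and the marker mean together, and the slope on the mean was read from that fit, a reading chosen after seeing the data. Ctss then had a slope of 1.03 per unit of marker mean (SE 0.12, adjusted p = 0.00550) and Lgmn 0.68 (SE 0.13, adjusted p = 0.0447). These 2 were the members called, against 0.641% of all genes called with a positive slope. Ctsc had a slope of 0.50 (SE 0.11, adjusted p = 0.0997), Gusb 0.42 (SE 0.10, adjusted p = 0.198) and Ctsh -0.23 (SE 0.16, adjusted p = 0.881). Of the 40 members 35 had a positive slope, with a median of 0.15. Over all genes 4758 of 9511 were positive, with a median of 9.4e-05. The 22 markers had a median of 1.07, but they make up the mean, so that value is no outside reference. The call of Ctss ended without Cry DKO line 1 (1.13, adjusted p = 0.0677) or Cry DKO line 3 (1.0, adjusted p = 0.0646). That of Lgmn held only without WT line 4 or Cry DKO line 4, and elsewhere its slope lay between 0.57 and 0.78 with an adjusted p between 0.0621 and 0.794.

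**Figure D3:**
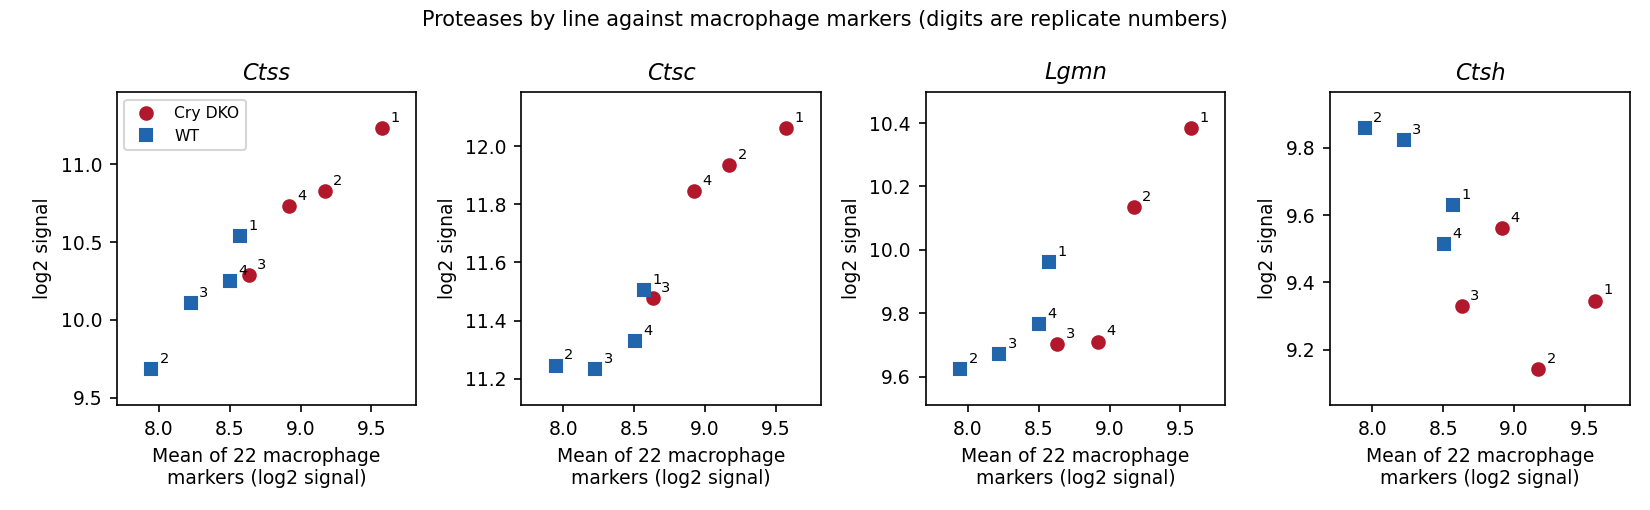
Log2 signal of Ctss, Ctsc, Lgmn and Ctsh in each of the 4 Cry DKO and 4 WT lines (vertical axes) against the mean log2 signal of 22 macrophage markers in the same line (horizontal axes). Ctss, Ctsc and Lgmn are high in the Cry DKO lines with most marker signal, and Ctsh is not.

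At equal macrophage marker mean the genotype difference of Ctss was -0.16 (limma adjusted p = 0.522) and that of Ctsc 0.12 (adjusted p = 0.629). Of the lower members, Ctsk differed in the same fit by -0.72, Ctsa by -0.38, Gaa by -0.41, Lamp1 by -0.33, Arsa by -0.25 and Ctsh by -0.18. Hexa reached -0.60 (SE 0.11, adjusted p = 0.0641). Negative differences numbered 35 of 40 members, against 26 without the marker mean. The marker mean was higher in Cry DKO, so each of the 35 members with a positive slope has a lower difference in this fit. The rise in that count thus follows from the slopes and is no separate result. The same holds for the negative signs of Ctsk, Ctsa, Gaa and Lamp1, whose slopes were positive (0.12 to 0.19). Slopes of Arsa and Ctsh were negative, at -0.03 and -0.23. Over all genes the median difference in this fit was -0.0072. This fit called 0 members in limma and 24 of all 9511 genes. At an unadjusted p under 0.05 it passed 14 members and 1480 of all genes. Genotype and marker mean are partly confounded, since the groups do not overlap in it, and the part of macrophage content in these results was not tested further.

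**Figure D4:**
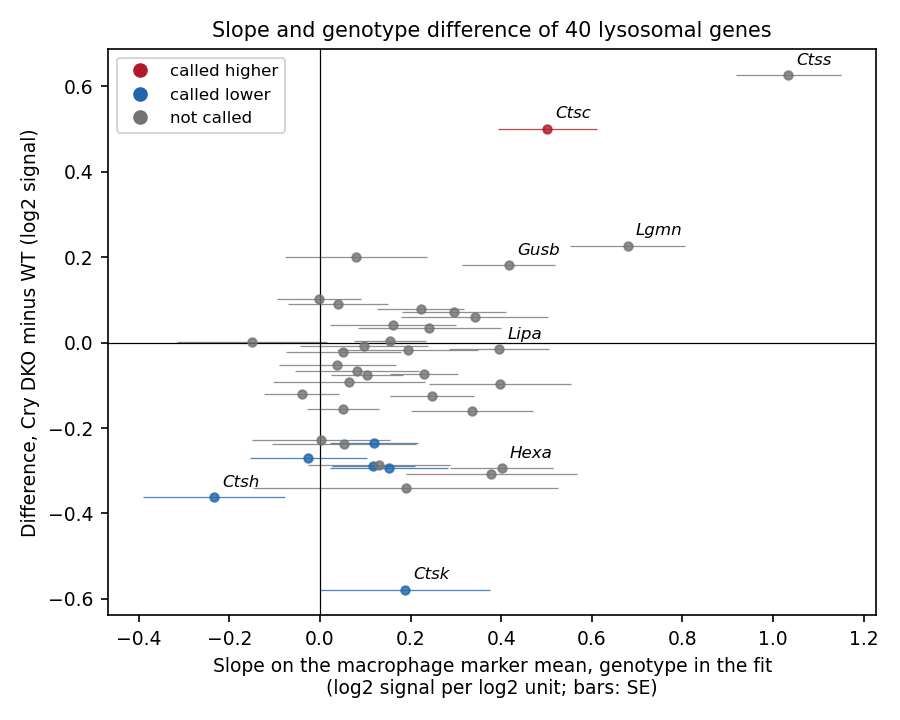
Slope on the macrophage marker mean, from limma with genotype in the fit (horizontal axis), and difference between Cry DKO and WT without the marker mean (vertical axis, log2) for the 40 tested members. Ctss and Ctsc lie at the upper right with slopes of 1.03 and 0.50, and the called lower genes lie at smaller slopes.

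Across lines the other 37 members were not shifted evenly. Relative to the WT mean, their median deviation was 0.02, -0.06, -0.16 and -0.10 in Cry DKO lines 1 to 4. In Cry DKO line 1, 11 of the 37 lay below the WT range and 12 above it. The same counts were 17 below and 6 above in Cry DKO line 2, 22 and 2 in line 3, and 21 and 5 in line 4. Cry DKO line 1 thus had no net shift of these members. It was also the line with the highest macrophage marker mean, and a link between these values was not tested. Over all genes tested the median deviation was -0.0044, 0.0075, -0.00575 and -0.0146 in Cry DKO lines 1 to 4. Each WT line set against the other 3 had a median deviation between -0.06 and 0.08. Against the range of those 3, 8 members lay below and 8 above in WT line 1. The counts were 15 and 8 in WT line 2, 10 and 6 in line 3, and 4 and 15 in line 4. Many members thus lay outside the range in WT lines too, and the same shares over all genes were not counted.

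Promoters of the members were read from RefSeq (assembly GRCm38.p6) to show the E-boxes that TFEB-type factors and CLOCK-ARNTL can bind. A window runs from 250 bases before to 50 bases after each start, and 41 members had at least 1. The core CACGTG, which reads the same on both strands, was found in 13 of those 41 genes (31.7%), against 12.3% of the 7794 tested genes with a window. Counted by window it was in 26% of the members' 50 windows, 10.2% of windows of tested genes and 7.15% of all 32851 windows. The longer TCACGTGA, which contains the core and also reads the same on both strands, was in 10% of the members' windows, against 1.98% of windows of tested genes and 0.974% of all windows. Of the 6 genes called lower, Ctsa, Lamp1, Gaa and Arsa held the core, Ctsk did not, and Ctsh had no window. Windows of Ctsc and Ctss held no core.

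The stretches around the cores of the 4 lower genes are shown because these are the called members whose promoters carry an E-box, with the core, or the TCACGTGA form, in capitals, 5′ to 3′ on the strand of the gene. Ctsa (chr2:164833741-164833772, plus strand), Lamp1 (chr8:13159080-13159160, plus strand), Gaa (chr11:119267803-119267848, plus strand) and Arsa (chr15:89477425-89477460, minus strand) read:
Ctsa: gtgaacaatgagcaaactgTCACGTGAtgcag
Lamp1: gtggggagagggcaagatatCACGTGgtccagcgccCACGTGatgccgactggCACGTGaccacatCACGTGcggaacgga
Gaa: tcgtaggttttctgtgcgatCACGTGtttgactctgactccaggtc
Arsa: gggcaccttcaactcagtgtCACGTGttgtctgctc

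Lamp1 carried 4 cores between 61 and 15 bases before its start, more than any other member. Ctsa had the longer form at 12 bases before its start, and a second copy just after its start, which is not shown. Arsa had a core at 16 bases before its start and Gaa a core at 140 bases. E-boxes of the same form stood in promoters of members that were not called. Mcoln1 (chr8:3500428-3500499, plus strand) and Gla (chrX:134601174-134601252, minus strand), with differences of 0.00 and -0.02, are shown for comparison:
Mcoln1: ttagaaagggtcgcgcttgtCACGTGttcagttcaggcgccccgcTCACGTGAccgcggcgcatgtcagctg
Gla: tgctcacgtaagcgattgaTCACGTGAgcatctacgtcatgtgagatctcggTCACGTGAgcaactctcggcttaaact

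Lgmn, Ctsd, Ctsf, Ctsl, Glb1, Naglu and Cln3 held the core too. Of 12 tested members with a core 10 had a negative difference, 4 were called lower and the median was -0.23. Of 25 tested members with a window but no core 14 were negative, 1 was called lower and 1 higher, and the median was -0.02. Over all genes tested these values were close with and without the core: 4.19% of 955 genes with it were called lower, with a median of -0.0045, and 4.05% of 6839 genes without it, with a median of -0.0052. This split was made after seeing the data and is a description with no test. A match to these letters does not show that a factor binds there.

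**Figure D5:**
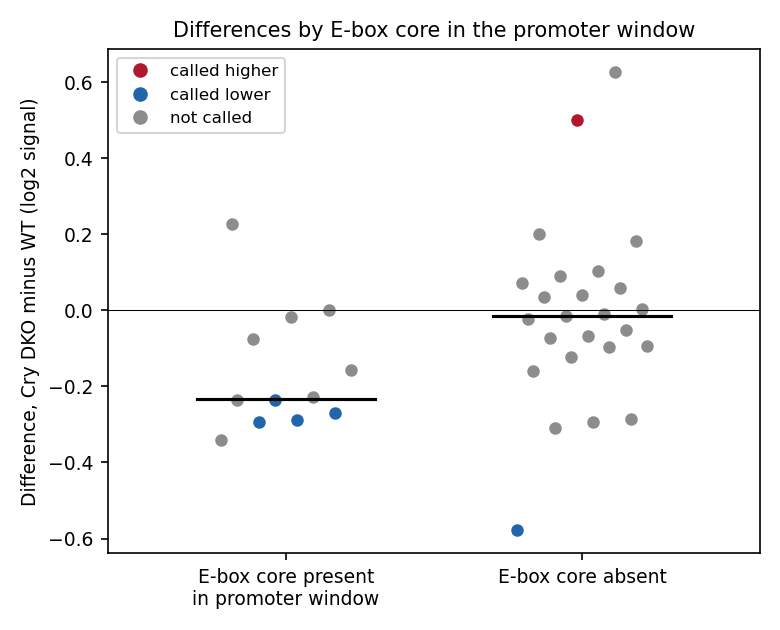
Difference between Cry DKO and WT (log2) of tested members whose promoter window holds the E-box core (12 genes) and of those whose window does not (25 genes), with a black line at each median. The medians are -0.23 and -0.02, and the ranges overlap.

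Other genes of the lysosomal pathway came from lists drawn from general knowledge. Earlier results of these data were known at that time, so the lists are no independent reference. In most of these lists more differences were negative than positive. Over all genes tested, 51.5% were negative, 4.95% were called higher and 4.23% lower. The V-ATPase, the proton pump that acidifies lysosomes, had 13 of 15 tested subunits negative (median -0.10). It had 1 called lower (6.67%), the subunit Atp6v1e1 (-0.19, limma adjusted p = 0.0437), and 0 higher. That call held only without Cry DKO line 2 (-0.23 to -0.17 over the 8 fits that leave out a line). Among 20 further lysosomal enzymes and cargo proteins 17 were negative (median -0.16), 3 were called lower (15%) and 0 higher. These were Tcn2, the cobalamin transport protein (-0.43, adjusted p = 0.00196), Aga, which cleaves asparagine-linked glycans (-0.43, adjusted p = 0.0123), and Smpd1, acid sphingomyelinase (-0.28, adjusted p = 0.0305). Tcn2 and Aga stayed called without any 1 line. The call of Smpd1 ended without WT line 1, 2 or 3 or Cry DKO line 2, 3 or 4 (-0.32 to -0.25 over all 8 fits), and its probe set of highest variance gave 0.10 without a call (adjusted p = 0.736).

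Of 19 further lysosomal membrane proteins, 2 were called higher (10.5%, against 4.95% of all genes) and 0 lower, with a median of -0.07. Both, Laptm5 (0.90, limma adjusted p = 0.0231) and Cd68 (0.75, adjusted p = 0.0314), are also in the macrophage marker list. Laptm5 lost its call without WT line 2 or 3 (0.69 to 1.04 over the 8 fits), and Cd68 without WT line 1, 2 or 3 or Cry DKO line 2 (0.55 to 0.87). Among 19 genes of mannose 6-phosphate tagging and lysosomal sorting (median -0.07), the clathrin adaptor Gga2 rose by 0.38 (adjusted p = 0.0108) and stayed called without any 1 line. Ap3b1, a subunit of the AP-3 adaptor, fell by 0.26 (adjusted p = 0.0420), and that call held only without Cry DKO line 1 (-0.30 to -0.20 over the 8 fits).

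Of 15 tested genes of the MiT-TFE family and of mTORC1 control at the lysosome, which set lysosomal gene expression, 0 were called in limma and 0 passed an unadjusted p under 0.05, with a median of 0.02. Those with the smallest p were the GTPase Rheb (0.20, adjusted p = 0.256) and folliculin, Flcn (-0.21, adjusted p = 0.264). Autophagy genes had 17 of 22 negative (median -0.14), with 3 called lower (13.6%, against 4.23% of all genes) and 0 higher. Wipi1, a phosphoinositide-binding protein of the forming autophagosome, fell by 0.37 (adjusted p = 0.0305). Map1lc3a, an LC3 protein, fell by 0.36 (adjusted p = 0.0307) and its relative Gabarapl1 by 0.30 (adjusted p = 0.0437). The call of Wipi1 ended without WT line 2 or 4 or Cry DKO line 2 or 3 (-0.41 to -0.28 over the 8 fits). Map1lc3a lost its call without WT line 2, 3 or 4 or Cry DKO line 3 or 4 (-0.43 to -0.29), and Gabarapl1 kept it only without Cry DKO line 2 (-0.37 to -0.22). Of 2 tested cysteine protease inhibitors, 1 was called. Cst3, cystatin C, a secreted inhibitor of cysteine cathepsins, fell by 0.24 (adjusted p = 0.0185) and stayed called without any 1 line. Its call ended without the intensity trend, without moderation and with the macrophage marker mean as a covariate. Cstb, the other gene, differed by -0.07 (adjusted p = 0.428).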

How the data were processed

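Total RNA from 4 Cry DKO and 4 WT primary MEF lines was labelled from 5 ug and hybridised to Affymetrix arrays, per the labels' protocols. Values, as deposited, run from 0.0675 to 14.3 and were read as log2, a base inferred from that range. The submitters' processing notes name GCOS, with no version. The authors' steps of summarisation and normalisation, not given in the sources used here, were left as they stood. Of 30506 probe sets, 24838 carried 1 gene, 658 several, 4949 none listed and 61 were controls. Probe sets with 1 gene and a mean over the 40th percentile were kept, the brightest per gene. The genotype comparison used limma 3.58.1 under R 4.3.3 (lmFit, eBayes with an intensity trend, Benjamini-Hochberg adjustment, adjusted p under 0.05), tested on simulated data. Alternatives changed the replicate block, normalisation, filter, probe set rule, moderation, weights, threshold, macrophage marker covariate and lines kept. Promoter windows came from RefSeq tables (GRCm38.p6), searched for CACGTG and TCACGTGA.

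The members and lists were chosen with earlier results of these data known. Values per line are given for called members, for Ctss, Ctsc, Ctsh and Tfe3, and for members whose call depends on the probe set. From other lists up to 4 called genes of smallest p are named, or up to 2 where none is called. Ctsl, Idua, Hexa, Lgmn, Psap and Cln3 were given per line after their values were seen. Markers of endothelial cells (5 of 8 with a probe set, all below the floor) and of lymphocytes and mast cells (0 of 9 with a probe set) gave no tested gene. Of 2 tested epithelial markers 0 were called in limma and 1 passed an unadjusted p under 0.05: Krt18 differed by -0.30 (adjusted p = 0.140) and Krt19 by 0.02.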

Additional observations from a re-analysis of the deposited data

Results flagged for a closer look

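In 82 groups of 4 lines (41 members in each genotype), the highest or lowest line was checked for a gap to the others, and chance flags about 1 group in 20. Ctsb, a cathepsin with broad expression, stood at 12.4 in WT line 4, above the other 3 WT lines at 12.16 to 12.17. Galc, galactosylceramidase, stood at 7.31 in WT line 2, below the other WT lines at 7.71 to 7.75. Gnptab stood at 8.59 in Cry DKO line 2, below the other Cry DKO lines at 8.70 to 8.71. None of the 3 genes was called between genotypes.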

How the results depend on the processing

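The count of members called higher, 1 in the analysis above, was 2 with a replicate block, 2 at an adjusted p of 0.1, 0 at an adjusted p of 0.01, 0 without moderation, 0 with the macrophage marker mean as a covariate, and between 0 and 2 with any 1 line left out. Over all genes the higher count was 471 above, 565 with the block, 731 at 0.1 and 137 at 0.01. It was 199 without moderation, 11 with the covariate and between 225 and 358 with 1 line left out. The count of members called lower, 6 above, was 2 without the intensity trend, 1 without moderation, 0 with the covariate, 0 at an adjusted p of 0.01 and between 2 and 7 with any 1 line left out. Lower calls over all genes numbered 402 above, 291 without the intensity trend and 118 without moderation. They numbered 13 with the covariate, 73 at an adjusted p of 0.01 and between 161 and 329 with 1 line left out. At an unadjusted p under 0.05 limma passed 15 members, 12 without moderation and 14 with the covariate. Of all 9511 genes it passed 2406, 2160 without moderation and 1480 with the covariate. With the covariate the median of Ctss, Ctsc and Ctsh moved to -0.16 (0.50 without) and that of the other members to -0.19 (-0.07 without), and Ctss reversed to -0.16. Smpd1 reversed to 0.10 with the probe set of highest variance. The moved differences with the covariate follow from the slopes described above and are no separate result. The cause of the other changes was not tested. Members with a called slope on the marker mean numbered between 0 and 2 with 1 line left out, and 2 with the lysosomal markers Cd68, Laptm5 and Lyz2 taken out of the mean, alternatives chosen after seeing the data. Replicate numbers were not taken as pairs, since the labels call the lines independent. Same-numbered lines correlated at 0.36, 0.116, 0.232 and -0.0109, and differently numbered lines between -0.265 and 0.118. Whether lines of the same number share a batch was not tested. The replicate block called 1051 genes, against 873 without it, and 5 members lower. With it Ctss was called (0.63, adjusted p = 0.0222) and Ctsh was not (adjusted p = 0.0723). All-gene calls fell to 317 without moderation, 24 with the covariate and between 386 and 684 with 1 line left out. Signal over background limits the dim members, such as Ctsf and Cln3.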
